A study of Mus musculus with 6 samples.

Results

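The complement receptors and regulators examined here were 9 genes chosen by name: the anaphylatoxin receptors C3ar1, C5ar1 and C5ar2, the components C4b, Cfp and C1ra, and the regulators Cd55, Cd59a and Serping1. C1q and C3 themselves were left out of the set. All 9 genes were found, by the Ensembl identifiers of their mouse symbols, among the 26789 genes of the deposited table. All 9 also belonged to the 18007 genes whose 6-library mean reached 10 normalized counts, which were the genes tested.

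Complement is a cascade of proteases and their substrates that tags surfaces for removal. In the classical pathway, C1q carries the proteases C1r and C1s, which cleave C4 and C2 to form the enzyme that cleaves C3. The alternative pathway amplifies C3 cleavage, the released fragments C3a and C5a act on anaphylatoxin receptors, and host cells and plasma hold inhibitors at each step. In the brain, microglia carry complement receptors and take part in removing synapses and terminals tagged by complement.

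The libraries came from microglia of the rostral nucleus of the solitary tract (NST), the gustatory relay of the brainstem, at postnatal day 15 (P15). There were 3 control libraries and 3 libraries from E3–E12 diet mice, whose mothers received low sodium chow from embryonic day 3 to day 12 and standard chow afterwards. The methods name C57Bl/6 mice for the controls and give no transgene or deletion for these libraries, and each library pooled the NSTs of 6 littermates from 1 litter, so the replicate was the litter. The methods describe papain dissociation and CD11b bead selection, whereas the deposited description names laser tissue microdissection, so the isolation was uncertain. The comparison asked whether the maternal diet went with other levels of these genes in microglia at the age when gustatory terminal fields are about to be pruned.

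The deposited values were normalized counts, which summed to between 9407141 and 17204618 per library, and the number of reads behind a value was unknown. All 12 microglia markers, among them Tmem119, P2ry12 and Csf1r, were above 0 in every library, which did not go against the label but does not measure purity. The summed level of these microglia markers was lowest in control replicate 1 (97198 normalized counts) and E3–E12 diet replicate 1 (99061), and highest in control replicate 2 (513232). Oligodendrocyte markers summed to 41069 in control replicate 1, and choroid plexus markers to 40558 in E3–E12 diet replicate 1. Control replicate 2 stood apart in having the most genes listed at 0 (10640 of 26789, against 3459 to 7135 in the other libraries). Markers at 0 in it included Gfap, Aldh1l1 and Gjb6 of astrocytes and Syt1, Rbfox3 and Stmn2 of neurons. The mural marker Kcnj8 and the endothelial marker Ly6c1 were also at 0 there. Not every marker of these lists was low in that library, so these cell types were not shown to be absent. The endothelial markers Cldn5 (1207 normalized counts) and Pecam1 (3154) were highest there. In contrast, Flt1 (95.4), Cdh5, Tek and Slco1a4 were lowest there, and Kdr, Esam and Egfl7 lay within the range of the other libraries. The astrocyte markers Aqp4, Slc1a2, Aldoc and Gja1 were also lowest there. Only Slc1a3 (1420) of the astrocyte list went the other way, being higher there than in the other controls. In these bulk libraries, fewer cells of a type and less RNA per cell cannot be told apart.

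No difference between E3–E12 diet mice and controls in the 9 genes passed the test across all genes. The levels of 7 genes were lower and those of 2 (Cd59a and C1ra) higher in E3–E12 diet mice by mean log2 level, with a median log2 fold change of -0.34; 3 genes were higher after quantile normalization and 4 relative to the microglia markers. Without control replicate 2, 4 of the 9 genes were higher and the median was -0.21. C1ra was the only one of the 9 in which the groups did not overlap, and C4b had the largest log2 difference of the 9, in which 1 control library stood far above the rest. The test was limma on log2(normalized count + 1), two-sided, with Benjamini-Hochberg adjustment over 18007 genes, and a log2 fold change below is the E3–E12 diet mean minus the control mean on that scale. Every one of the 9 had an adjusted p of 0.999, and 0 of 9 had an unadjusted p under 0.05. Across all genes tested, 0.00% passed the adjusted threshold of 0.1 (0 genes; the smallest adjusted p was 0.225), while the unadjusted p was under 0.05 in 1.82% (327 genes). In all genes tested, 45.6% had a lower mean log2 level in E3–E12 diet mice, the median log2 fold change was 0.087, and the groups did not overlap in 5.90%. The log2 fold changes had a median standard error of 0.81 for the 9 genes and 0.85 for all genes tested, so a difference of that size in a single gene was not detectable with 3 libraries a group.

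**Figure D1:**
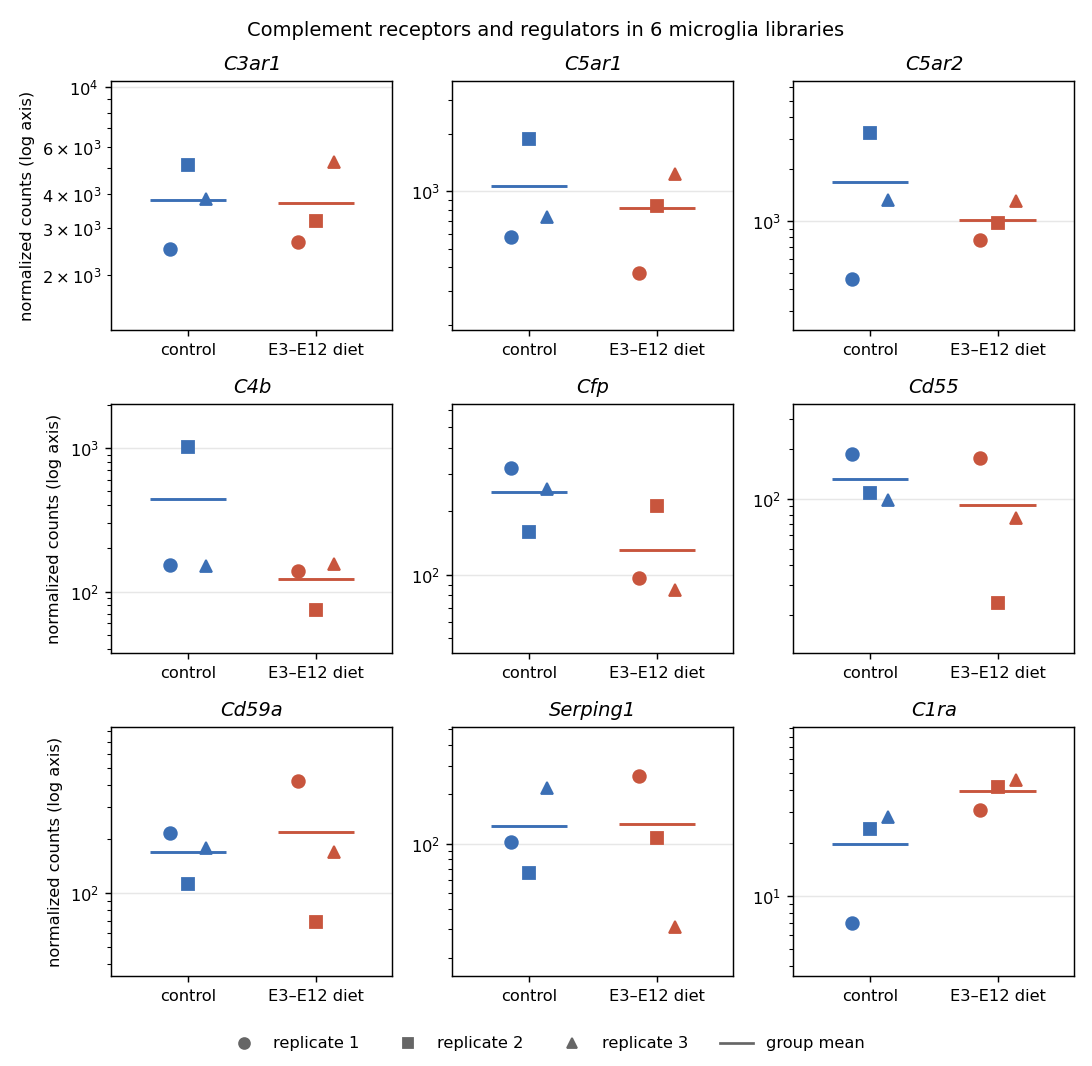
Normalized counts (log axes, each panel with its own range) of the 9 genes in the 3 control libraries (blue) and the 3 E3–E12 diet libraries (red). Each symbol is 1 library, its shape is the replicate number, and the line is the arithmetic group mean. C1ra is the only panel in which every E3–E12 diet library (30.6 to 45.4) lies above every control library (6.97 to 28.0), and in C4b a single control library at 1014 lies above the remaining 5 libraries.

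The 3 anaphylatoxin receptors were the most abundant of the 9 genes per length, and their levels in E3–E12 diet mice lay within the range of the controls or close to it. C3ar1 encodes the G protein-coupled receptor for C3a. C5ar1 encodes the G protein-coupled receptor for C5a, and C5ar2 encodes a second C5a receptor that does not couple to G proteins. All 3 lie on the minus strand (GRCm38, GENCODE annotation): C3ar1 at chr6:122847138-122856161, C5ar1 at chr7:16246743-16259540 and C5ar2 next to it at chr7:16234585-16244154. The C3ar1 and C5ar1 transcripts shared no 50-base window with other annotated genes, and that of C5ar2 shared 4.56% of its windows. The coding sequences of C5ar1 and C5ar2 were identical at 50.7% of 1012 aligned bases.

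Because the 3 receptors also had the most similar patterns across libraries, their promoters are shown, from RefSeq on build GRCm38.p6, from 250 bases before to 50 bases after the start site and 5′ to 3′ along the gene. Capitals mark AGGAAG or its reverse complement CTTCCT, a core bound by ETS family factors, a family that includes the myeloid factor Spi1.
C3ar1, chr6:122856108-122856407, minus strand: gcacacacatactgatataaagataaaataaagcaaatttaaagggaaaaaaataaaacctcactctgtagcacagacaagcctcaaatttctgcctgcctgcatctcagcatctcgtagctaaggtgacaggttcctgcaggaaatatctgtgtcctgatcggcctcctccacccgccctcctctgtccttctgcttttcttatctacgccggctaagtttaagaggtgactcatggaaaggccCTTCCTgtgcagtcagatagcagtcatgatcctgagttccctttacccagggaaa
C5ar1, chr7:16259289-16259588, minus strand: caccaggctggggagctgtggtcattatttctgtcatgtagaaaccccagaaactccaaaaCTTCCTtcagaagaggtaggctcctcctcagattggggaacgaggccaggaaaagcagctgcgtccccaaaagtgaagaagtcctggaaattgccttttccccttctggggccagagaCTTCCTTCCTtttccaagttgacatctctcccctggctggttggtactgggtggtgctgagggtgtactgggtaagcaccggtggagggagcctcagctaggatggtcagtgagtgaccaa
C5ar2, chr7:16244105-16244404, minus strand: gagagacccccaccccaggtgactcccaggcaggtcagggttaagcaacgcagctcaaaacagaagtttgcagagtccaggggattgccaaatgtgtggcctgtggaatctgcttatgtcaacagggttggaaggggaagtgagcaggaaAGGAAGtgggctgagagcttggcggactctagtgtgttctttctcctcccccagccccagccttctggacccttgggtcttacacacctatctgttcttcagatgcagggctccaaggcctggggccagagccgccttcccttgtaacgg
The motif, searched on both strands, occurred 1 time in the C3ar1 window, 3 times in the C5ar1 window (2 of them overlapping) and 1 time in the C5ar2 window. It was absent from the windows of Cfp, Cd55, Cd59a and C1ra, and C4b and Serping1 had no entry. AGGAAG was added after GAGGAA and TATAAA had been searched. GAGGAA, another ETS core, was found in the windows of Cfp, Cd59a and C1ra and at a second annotated start of C5ar2, where it overlapped an AGGAAG match. TATAAA, the letters of a TATA box, was found in the C3ar1 window only. That match lay at -235 to -230 from the start site and was not shown to act as a TATA box. Of all 32851 promoter windows, 35.4% held AGGAAG, 28.3% held GAGGAA and 13.6% held TATAAA, so a match is common and describes the letters of the window, not a site in use.

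The normalized counts of C3ar1 in replicates 1 to 3 were 2502, 5110 and 3848 for the controls, compared with 2663, 3183 and 5246 for E3–E12 diet mice. Replicate 1 was the lowest in each group and the 2 ranges almost coincided. The group means were 3820 ± 1305 in controls and 3697 ± 1366 in E3–E12 diet mice (SD, n = 3 libraries each), with a log2 fold change of -0.049 (SE 0.61, 95% confidence interval -1.50 to 1.40; exact permutation p = 1). The highest library exceeded the lowest 2.10-fold, the narrowest range of the 9 genes, and 13.7% of all genes tested had a smaller residual SD. The sign turned to 0.19 when control replicate 2 was left out, to 0.16 without E3–E12 diet replicate 1, to 0.03 without E3–E12 diet replicate 2, to 0.14 after quantile normalization and to 0.21 relative to the microglia markers.

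For C5ar1 the controls (replicates 1 to 3) gave 576, 1885 and 733 normalized counts, whereas E3–E12 diet mice gave 375, 842 and 1230. The highest library was control replicate 2, the lowest was E3–E12 diet replicate 1, and the groups overlapped. The log2 fold change was -0.34 (SE 0.76, 95% confidence interval -2.17 to 1.48; exact permutation p = 0.7), from means of 1064 ± 715 in controls and 816 ± 428 in E3–E12 diet mice. It was 0.17 when control replicate 2 was left out and 0.14 when E3–E12 diet replicate 1 was.

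Normalized counts of C5ar2 were 461, 3244 and 1326 in the control libraries (replicates 1 to 3), compared with 772, 975 and 1305 in the E3–E12 diet libraries. Both the lowest and the highest library were controls, and all E3–E12 diet libraries lay between them. The means were 1677 ± 1424 in controls and 1017 ± 269 in E3–E12 diet mice, with a log2 fold change of -0.34 (SE 0.83, 95% confidence interval -2.32 to 1.65; exact permutation p = 0.7). Without control replicate 2 it was 0.35, and without control replicate 1 it was -1.06.

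The 3 receptors shared their order of libraries in part with the microglia markers, which were low in replicate 1 of both groups and highest in control replicate 2. As a measure of likeness, each gene's log2 levels were centred on their 6-library mean, and the absolute difference between 2 genes was averaged over the 6 libraries. C3ar1 and C5ar1 differed by 0.32, C3ar1 and C5ar2 by 0.39, and C5ar1 and C5ar2 by 0.45, the 3 smallest values of the 36 pairs among the 9 genes. Against the mean log2 level of the 12 microglia markers the differences were 0.45 for C3ar1, 0.27 for C5ar1 and 0.39 for C5ar2, and against the 7 markers of border-associated macrophages they were 0.37, 0.25 and 0.37. The summed level of those macrophage markers, all above 0 in every library, ran from 6019 to 21060 in controls and from 5645 to 9847 in E3–E12 diet mice. All 12 microglia markers and 6 of the 7 macrophage markers had a lower mean log2 level in E3–E12 diet mice, as did 45.6% of all genes tested. The log2 fold changes of the microglia markers ran from -0.60 (Gpr34) to -0.0041 (Aif1). Each of these microglia markers turned above 0 when some single library was left out. The part of the microglia and macrophage markers in the values of the receptors was not tested. Relative to the microglia markers the log2 fold changes were -0.081 for C5ar1 and -0.075 for C5ar2, and on that scale the median over all genes tested was 0.35.

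**Figure D2:**
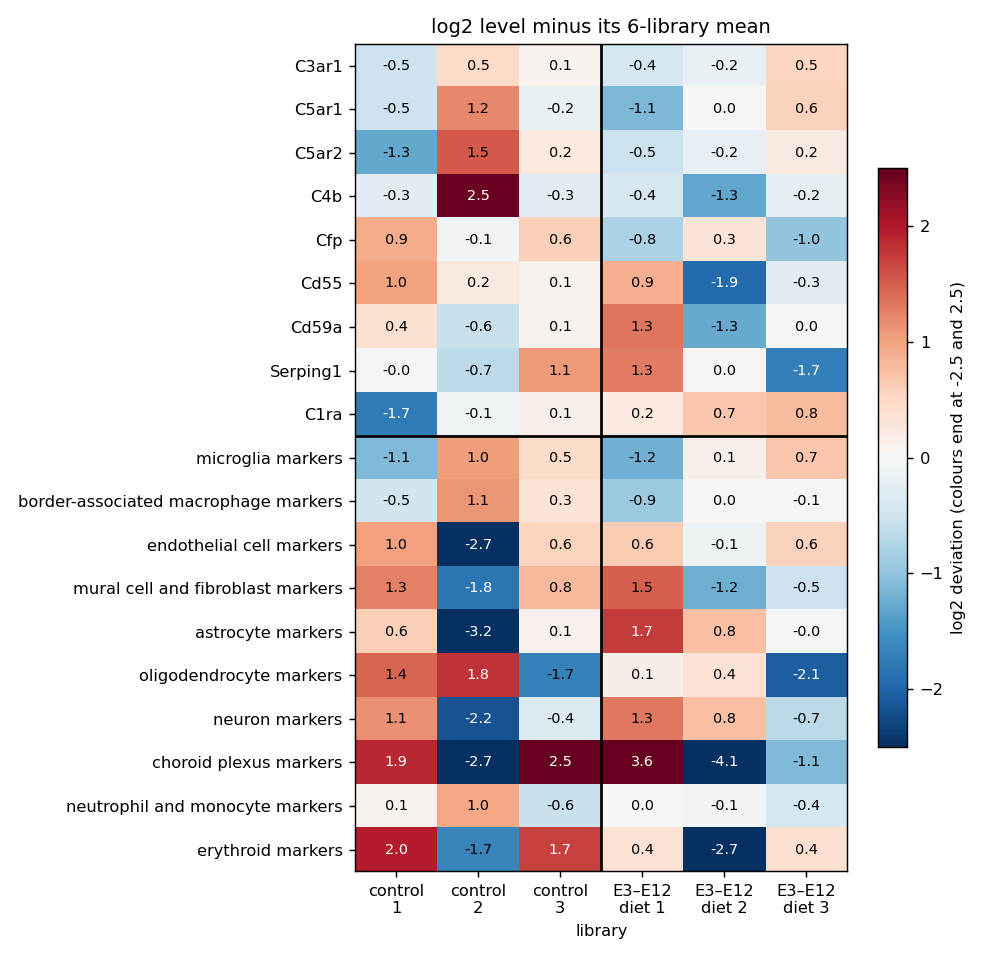
Log2 level of each of the 9 genes (upper rows) and mean log2 level of each cell type marker list (lower rows) in each library, minus its 6-library mean, printed in each cell and coloured from blue (below) to red (above). The 3 receptors sit below their mean in replicate 1 of both groups, as the microglia markers do, while Cd55 and Cd59a sit above theirs in E3–E12 diet replicate 1 and below in E3–E12 diet replicate 2.

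Among components of the cascade, C4b and Cfp had lower and C1ra higher mean levels in E3–E12 diet mice, and none passed the test. C4b encodes complement C4, the substrate of C1s and MASP proteases whose fragment becomes part of the classical pathway C3 convertase. The controls (replicates 1 to 3) gave 153, 1014 and 151 normalized counts of C4b, whereas E3–E12 diet mice gave 139, 74.2 and 155. Outside control replicate 2 the libraries lay between 74.2 and 155, and the groups overlapped. The means were 439 ± 497 in controls and 123 ± 42.9 in E3–E12 diet mice, with a log2 fold change of -1.29 (SE 0.91, 95% confidence interval -3.46 to 0.89; exact permutation p = 0.3). Without control replicate 2 the log2 fold change was -0.38, whereas without the other libraries it stayed between -1.75 and -0.96. Control replicate 2 also had the highest summed level of the neutrophil and monocyte markers, 3121 normalized counts against 486 and 665 in the other controls and 671 to 902 in E3–E12 diet mice, and within the marker and complement lists the gene most like C4b was the neutrophil granule gene Ngp. That sum rested mostly on S100a9, Ngp and S100a8. In contrast, Mpo (19.2 normalized counts) and Ccr2 (95.1) were lower there than in E3–E12 diet replicate 1 (172) and replicate 2 (190), respectively. The summed microglia and border-associated macrophage markers were also highest in control replicate 2. C4b differed by 0.66 from the neutrophil and monocyte list and by 0.71 from the macrophage list. Of the 9 neutrophil and monocyte markers 8 were in the table. Ly6g and Plac8 were at 0 in some libraries (Plac8 in control replicate 2), and the part of such cells in the C4b value was not tested.

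C4b lies at chr17:34728380-34743882 on the minus strand, near its copy C4a, and C4a holds 35.2% of the 50-base windows of its transcript. Its coding sequence and the annotated C4a transcript were identical at 96.1% of 5204 aligned bases. The 60-base stretch with the most differences, in exon 21 of both, shows where a read can be assigned to one of them. Capitals mark the 13 bases that differ.
C4b, chr17:34735430-34735489, minus strand: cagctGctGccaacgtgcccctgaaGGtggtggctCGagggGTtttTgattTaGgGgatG
C4a, chr17:34816086-34816145, minus strand: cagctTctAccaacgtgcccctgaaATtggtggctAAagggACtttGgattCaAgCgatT
The treatment of reads that fit both genes was not given in the sources used here, so the level of C4b is uncertain to that extent. C4a itself had 4.09, 1.92 and 34.1 normalized counts in the controls and 95.1, 0.54 and 0 in E3–E12 diet mice, an order unlike that of C4b, with the highest value in E3–E12 diet replicate 1.

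Cfp encodes properdin, which stabilizes the C3 convertase of the alternative pathway and is made by leukocytes. It lies at chrX:20925454-20931555 on the minus strand, and it shared none of its 50-base windows with other annotated genes. Its normalized counts in replicates 1 to 3 were 322, 160 and 255 for the controls, compared with 97.2, 211 and 85.1 for E3–E12 diet mice. Control replicate 2, the lowest control, fell below E3–E12 diet replicate 2, and the remaining E3–E12 diet libraries lay below all controls. The means were 246 ± 81.4 and 131 ± 69.4, with a log2 fold change of -0.96 (SE 0.64, 95% confidence interval -2.504 to 0.58; exact permutation p = 0.2). The difference kept its sign whichever library was left out, between -1.37 and -0.72, and was -0.70 relative to the microglia markers. In contrast to the receptors, Cfp was above its mean in control replicate 1, where the microglia markers were low.

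C1ra encodes the protease C1r of the C1 complex, which activates C1s. Its normalized counts were low, at 6.97, 23.8 and 28.0 for control replicates 1 to 3 against 30.6, 41.6 and 45.4 for E3–E12 diet replicates 1 to 3. Every E3–E12 diet library was above every control, a separation in this direction that 2.99% of all genes tested showed. The means were 19.6 ± 11.1 in controls and 39.2 ± 7.69 in E3–E12 diet mice, with a log2 fold change of 1.15 (SE 0.70, 95% confidence interval -0.52 to 2.82). Its unadjusted p from limma, 0.147, was the smallest of the 9 genes. An exact permutation test gave p = 0.1, the smallest value that 3 libraries against 3 allow. The log2 fold change was 0.56 without control replicate 1, the lowest library, and between 1.03 and 1.496 without any other. It was 1.41 relative to the microglia markers and 0.80 with a pseudocount of 10, and a filter at a mean of 50 normalized counts removed the gene.

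C1ra was the gene of the 9 whose reads were hardest to assign. It lies at chr6:124512405-124523443 on the plus strand, and other annotated genes hold 50.8% of its 50-base windows, with 48.0% found in its copy C1rb. The coding sequences of C1ra and C1rb were identical at 98.0% of 2118 aligned bases. The 60-base stretch with the most differences lies in exon 11 of both, and capitals mark the 11 bases that differ.
C1ra, chr6:124522654-124522713, plus strand: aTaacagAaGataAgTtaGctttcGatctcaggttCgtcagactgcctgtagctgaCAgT
C1rb, chr6:124580700-124580759, plus strand: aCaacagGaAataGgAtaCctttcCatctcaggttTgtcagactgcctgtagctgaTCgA
Expression values of C1rb were not analysed here, only its sequence, so a share of the small C1ra counts that belongs to it, or that was lost with reads fitting both, cannot be told apart from the level of C1ra.

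None of the 3 regulators passed the test either, and each spread over a wide range within E3–E12 diet mice. Cd55 encodes decay-accelerating factor, a membrane protein that takes apart C3 and C5 convertases on host cells. It lies at chr1:130439027-130462744 on the minus strand, and 13.3% of its 50-base windows occur in its neighbour Cd55b, whose coding sequence was identical at 91.1% of 1146 aligned bases. The control libraries (replicates 1 to 3) held 186, 108 and 98.7 normalized counts of Cd55, and the E3–E12 diet libraries held 175, 23.3 and 76.6. Replicate 1 was the highest in both groups, and E3–E12 diet replicate 2 was the lowest of all. The means were 131 ± 47.9 and 91.6 ± 76.9, with a log2 fold change of -0.87 (SE 0.85, 95% confidence interval -2.91 to 1.16; exact permutation p = 0.4). Without E3–E12 diet replicate 2 it was -0.12, and without E3–E12 diet replicate 1 it was -1.54. Cd55b was at 0 in 4 libraries and had 1.99 normalized counts in control replicate 2 and 36.6 in E3–E12 diet replicate 1.

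Cd59a encodes a GPI-anchored protein that blocks assembly of the membrane attack complex. It lies at chr2:104095801-104115354 on the plus strand, and 3.98% of its 50-base windows occur in its copy Cd59b. The control libraries (replicates 1 to 3) held 216, 113 and 178 normalized counts of Cd59a, and the E3–E12 diet libraries held 422, 68.6 and 168. The highest and the lowest library were both E3–E12 diet libraries, with all controls between them. The means were 169 ± 52.4 in controls and 220 ± 182 in E3–E12 diet mice, with a log2 fold change of 0.058 (SE 0.81, 95% confidence interval -1.87 to 1.99; exact permutation p = 1). The sign turned to -0.60 without E3–E12 diet replicate 1 and to -0.21 without control replicate 2. Cd59b had 45.9, 0 and 37.7 normalized counts in the controls and 88.8, 60.04 and 9.16 in E3–E12 diet mice.

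Serping1 encodes C1 inhibitor, the plasma serpin that inactivates C1r and C1s. It lies at chr2:84765387-84775444 on the minus strand, and it shared none of its 50-base windows with other annotated genes. For Serping1 the controls (replicates 1 to 3) gave 102, 65.7 and 219 normalized counts, whereas E3–E12 diet mice gave 259, 108 and 30.8. The E3–E12 diet libraries held both the highest and the lowest value. The means were 129 ± 79.9 and 133 ± 116, with a log2 fold change of -0.25 (SE 0.94, 95% confidence interval -2.496 to 1.996; exact permutation p = 1), so the arithmetic mean and the mean log2 level differed in direction. The log2 fold change was 0.55 without E3–E12 diet replicate 3, 0.22 without control replicate 3 and 0.013 relative to the microglia markers.

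The mean absolute difference takes in the size of swings between libraries as well as their order, so the nearest list does not single out a cell type. By it, Cd55, Cd59a and Serping1 were nearest, among the marker lists, to the mural cell and fibroblast markers rather than to the microglia markers. Their mean absolute differences from that list were 0.76 for Cd55, 0.60 for Cd59a and 0.89 for Serping1, against 1.40, 1.34 and 1.40 from the microglia markers. All 8 markers of that list were in the table, its summed level ran from 1657 to 15119 in controls and from 5557 to 16658 in E3–E12 diet mice, and only Kcnj8 reached 0, in control replicate 2. E3–E12 diet replicate 1, the library with the highest sum of these markers, also had the highest Cd59a and Serping1 values. That library also had the highest sums of the astrocyte (9914), neuron (1823) and choroid plexus (40558) markers. Control replicate 1 had a mural sum of 15119, with Serping1 at 102 normalized counts. Serping1 differed from the neuron markers by 0.98. The part of any of these cells in the values was not tested. None of the 9 genes was nearest to the markers of endothelial cells (summed level 5809 to 15590 in controls, 7751 to 13711 in E3–E12 diet mice), astrocytes (1738 to 9153, 4844 to 9914), oligodendrocytes (4422 to 41069, 4800 to 20763) or neurons (750 to 1580, 837 to 1823). The same held for the markers of the choroid plexus (555 to 18939, 52.4 to 40558) and of erythroid cells (9.26 to 125, 2.31 to 42.0), and the choroid plexus list varied most between libraries.

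**Figure D3:**
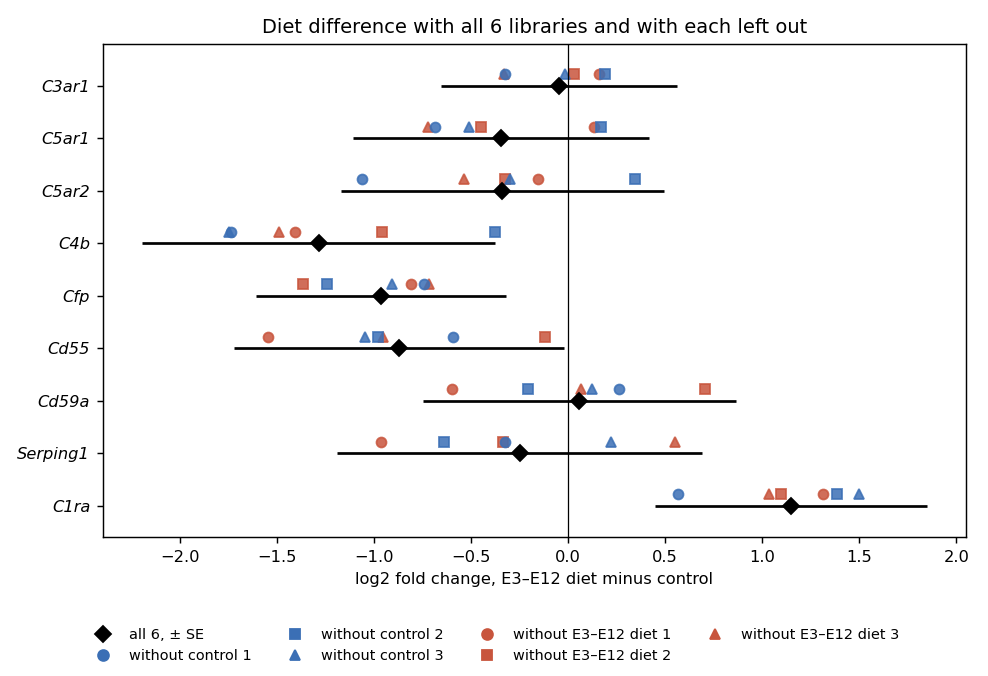
Log2 fold change (E3–E12 diet minus control) of each of the 9 genes with all 6 libraries (black diamond, bar ± SE from limma) and after leaving out each library (blue, a control left out; red, an E3–E12 diet library left out). The symbols of C3ar1, C5ar1, C5ar2, Cd59a and Serping1 lie on both sides of 0, and those of C4b, Cfp, Cd55 (below 0) and C1ra (above 0) lie on one side.

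Per kilobase of merged exon, the order of mean levels over the 6 libraries was C3ar1 (873 normalized counts per kb), C5ar2 (378), C5ar1 (366), Cfp (108), Cd59a (107), Serping1 (56.2), C4b (49.4), Cd55 (22.9) and C1ra (9.87). The median of all genes tested was 43.3, so the first 7 were above it and Cd55 and C1ra below it. The place of C4b rested on control replicate 2 (178 per kb, against 13.02 to 27.3 in the other libraries): without it C4b averaged 23.6 per kb, below the median of 42.2 for all genes tested, and C5ar1 (292) stood above C5ar2 (272) and Cd59a (116) above Cfp (112). C3ar1 was above 97.3% and C1ra above 14.6% of the genes tested. C3ar1 exceeded its neighbour C5ar2 in 6 of 6 libraries, and C5ar1 exceeded Cfp in 6 of 6. C5ar2 exceeded C5ar1 in 3 of 6 libraries, and the remaining neighbours kept their order in 4 or 5 of 6, so these levels did not differ beyond their spread. Cd59a exceeded Cd55 per kb in 6 of 6 libraries, though they are not neighbours in this order.

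For each of the 9 genes the genes of most similar pattern were sought among 10418 genes whose mean reached 100 normalized counts, by the same mean absolute difference over the 6 libraries. Among the closest were Cep192 (0.062) and Derl1 (0.067) for C3ar1, Tapbp (0.092) and Liph (0.093) for C5ar1, 9930111J21Rik2 (0.068) and Sfmbt1 (0.10) for C5ar2, and Swi5 (0.074) and Dis3l2 (0.094) for C4b. Matches were looser for Cfp with Washc3 (0.21) and Postn (0.21), for Cd55 with Ptprk (0.22) and Armc2 (0.25), for Cd59a with Nr2f2 (0.15) and Nipa1 (0.19), for C1ra with Washc2 (0.27), and for Serping1 with Ikbip (0.24) and Stx1a (0.38). All of these values share the scaling of the same 6 libraries, and they are given as a description. Within the complement and marker lists (104 genes), the nearest to the receptors were microglia markers, Aif1 for C3ar1 (0.19), Sall1 for C5ar1 (0.17) and Fcrls for C5ar2 (0.23). The nearest there were Ngp for C4b (0.30), Fcna for Cfp (0.33), the endothelial marker Esam for Cd55 (0.36), the fibroblast marker Col1a2 for Cd59a (0.39), C2 for C1ra (0.54) and Cr1l for Serping1 (0.62).

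The other genes of the complement system gave no call in either direction. Of 47 such genes listed by role, 41 were in the table and 30 were tested. By mean log2 level E3–E12 diet mice had 15 of them higher and 15 lower (22 higher relative to the microglia markers), the median log2 fold change was 0.019, and limma called 0 at an adjusted p of 0.1 and 0 at an unadjusted p of 0.05. The classical pathway (7 tested, 3 higher, 4 lower, median -0.044), the receptors (5 tested, 3 higher, 2 lower, median 0.21) and the membrane regulators (7 tested, 4 higher, 3 lower, median 0.081) had medians near that of all genes. The lectin pathway (3 tested, 1 higher, 2 lower, median -0.68), C3 with the alternative pathway (2 tested, both lower, median -0.48), the terminal pathway (2 tested, 1 higher, 1 lower) and the fluid-phase regulators (4 tested, 3 higher, 1 lower, median 1.54) held too few tested genes for more than these counts.

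The most abundant genes of that list included the integrin subunit Itgam, which is CD11b of complement receptor 3, the C1q chains C1qb and C1qc, and Cd93. The controls (replicates 1 to 3) gave 12271, 23771 and 23544 normalized counts of Itgam, whereas E3–E12 diet mice gave 8307, 17963 and 34466, and since the cells were selected on CD11b by the methods, its level is not independent of the isolation. Control levels of C1qb were 6553, 25124 and 24969, compared with 5604, 16839 and 37623 in E3–E12 diet mice. Those of C1qc were 9332, 21552 and 37195, compared with 3840, 19104 and 23515. Like the anaphylatoxin receptors, these 3 genes were lowest in replicate 1 of each group. Cd93, which endothelial cells also express, was highest in those replicates instead, at 5937, 1676 and 1761 for the controls against 5558, 2184 and 2852 for E3–E12 diet mice. The lectin pathway gene Fcna, ficolin A, was the 1 gene among these 30 without overlap between the groups. Among all genes tested, 5.90% had no overlap. Fcna had 51.2, 49.3 and 48.3 normalized counts for the controls against 20.4, 47.2 and 29.3 for E3–E12 diet mice (log2 fold change -0.68, SE 0.58). The nearest libraries of the groups, at 48.3 and 47.2, were close, and its unadjusted p from limma was 0.277.

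**Figure D4:**
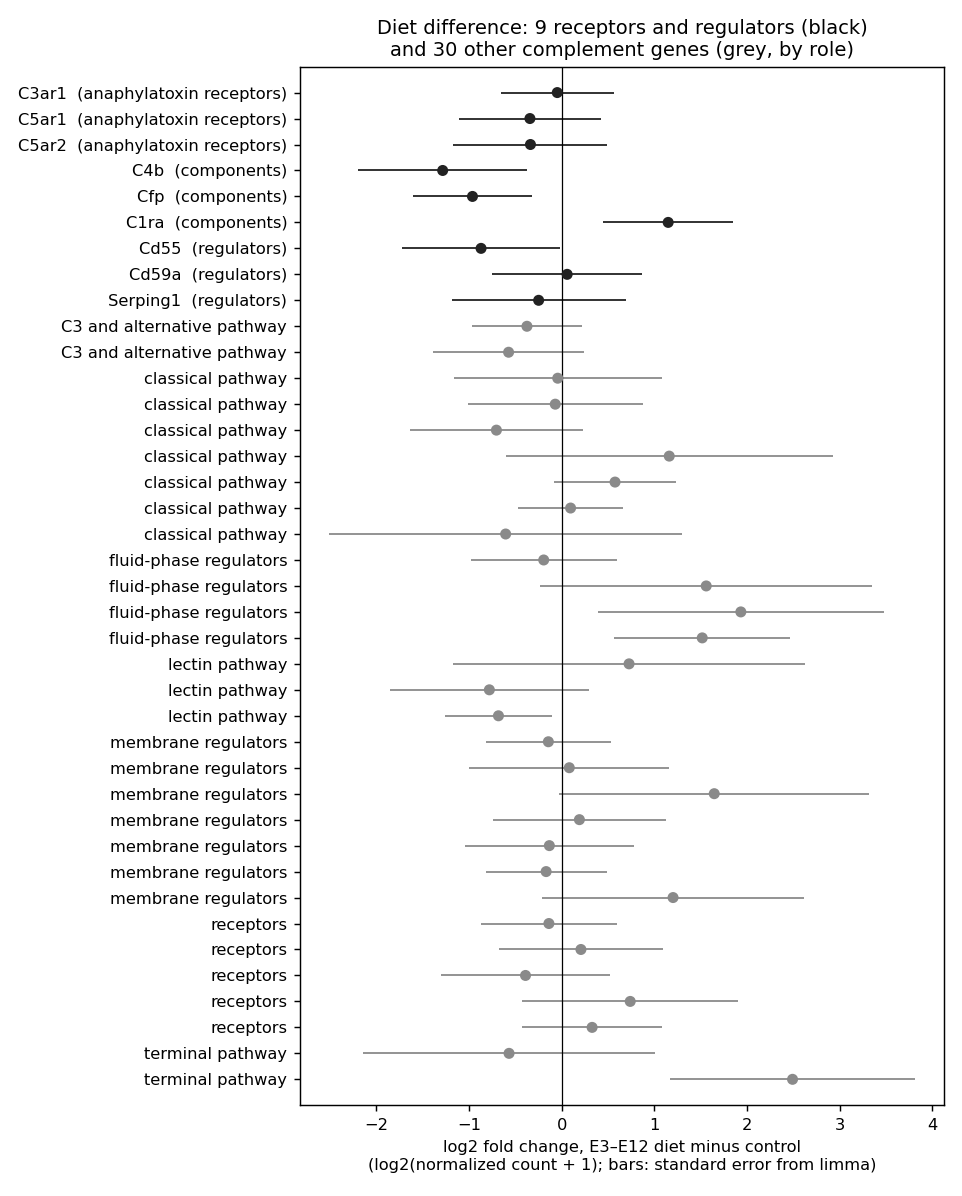
Log2 fold change (E3–E12 diet minus control, on the log2(normalized count + 1) scale) with its standard error from limma for the 9 genes (black) and the 30 other complement genes tested (grey), 1 gene a row and labelled by role. The 9 genes run from -1.29 (C4b) to 1.15 (C1ra), the other genes from -0.78 to 2.49, and no gene passed the adjusted threshold.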

How the data were processed

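RNA-seq of P15 microglia was compared between 3 control and 3 E3–E12 diet libraries, grouped by the sample labels. The authors deposited 1 table of normalized counts per gene (treated as signal, since whole reads could not be recovered from its values); the submitters' processing notes name FastQC, STAR, featureCounts, DESeq2 and GRCm38. The strand setting, the handling of reads fitting several genes and the surrogate variable step named with the table are not given in the sources used here. Read length was given differently in the labels and the methods. By the methods the RNA was amplified before sequencing. Normalized counts totalled 9407141 to 17204618 per library, and the reads behind a value were unknown, so no counting interval was given.

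The 9 genes, the complement and marker lists and the tests were chosen with earlier results of these data known. The 18007 genes whose mean reached 10 normalized counts were tested on log2(normalized count + 1), two-sided, with limma 3.58.1 (lmFit and eBayes without a mean-variance trend) in R 4.3.3, with Benjamini-Hochberg adjustment and the study's threshold of 0.1; residual SD was pooled over both groups. Each of the 9 genes was also given an exact permutation test over the 6 libraries (smallest possible p 0.1). Leave-one-out fits kept the genes of this filter. The limma script was tested on simulated data. Likeness, levels per kb of merged GENCODE exon, 50-base windows of the transcript with the longest coding sequence (for C4a, a processed transcript), alignments (MAFFT 7.526) and promoter motifs were computed with Python 3.11.15. Named were the 9 genes, and of the other complement genes the 5 with the highest mean, those whose groups did not overlap and the copies of the 9. Also named were the 2 most similar genes of each of the 9 among all genes, the most similar one in the lists, and markers at 0. Some genes that this rule names are not reported here. Of the 9 genes 7 were matched to a RefSeq promoter.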

Additional observations from a re-analysis of the deposited data

How the results depend on the processing

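With 3 litters a group, the 95% confidence intervals of the log2 fold changes of all 9 genes held 0 and reached as far as -3.46 (C4b) and 2.82 (C1ra), so sizeable differences in either direction could have been missed. Over 14 alternatives (pseudocounts of 0.5 and 10, no filter and a filter at a mean of 50, quantile normalization, a mean-variance trend, a replicate block, each library left out, and levels relative to the 12 microglia markers, which was added after seeing the data), 125 fits of the 9 genes were made. None passed the adjusted threshold and 0 had an unadjusted p under 0.05 (smallest 0.0903), while 13 turned the sign. C3ar1 turned to 0.14 after quantile normalization and 0.21 relative to the microglia markers, and Serping1 to 0.013 on the latter scale, which moved the median of all genes from 0.087 to 0.35. With libraries left out in turn, log2 fold changes ran from -0.33 to 0.19 for C3ar1, -0.72 to 0.17 for C5ar1, -1.06 to 0.35 for C5ar2, -0.60 to 0.71 for Cd59a and -0.97 to 0.55 for Serping1, and the median of the 9 genes from -0.60 to -0.21. The count at an unadjusted p under 0.05, which was 327 over all genes tested, became 207 with the filter at 50 (where 1 gene passed the adjusted threshold and fewer genes were tested), 491 after quantile normalization, 108 relative to the microglia markers, 268 with the mean-variance trend and 276 to 551 with libraries left out; among the other complement genes it was 0 to 1. The cause of these shifts was not tested. With the replicate number as a block, 0 genes passed (smallest adjusted p = 0.980 from limma) and 468 had an unadjusted p under 0.05; the labels do not say that a number marks a shared litter or day, the deviations of same-numbered libraries correlated at 0.26, 0.035 and 0.14, and control replicate 2 correlated best with E3–E12 diet replicate 3 (0.087).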

Other observations

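Ratios of levels per kilobase of merged exon between pairs of the genes were computed after their values had been seen, so they describe these libraries and support nothing on their own. Cd59a, which blocks the membrane attack complex, stood to Cd55, which acts on convertases, at 3.12, 2.79 and 4.84 for control replicates 1 to 3 against 6.47, 7.87 and 5.89 for E3–E12 diet replicates 1 to 3. The ratio was above every control in 3 of 3 E3–E12 diet libraries (3.58 ± 1.10 against 6.75 ± 1.02, SD; exact permutation p = 0.1, the smallest possible, and 0.4 after Benjamini-Hochberg adjustment over 4 ratios), while both genes overlapped between the groups when taken alone. The levels behind it were low in E3–E12 diet replicate 2, at 68.6 normalized counts for Cd59a and 23.3 for Cd55, and both genes share sequence with a copy.

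The other 3 ratios overlapped between the groups. C3ar1 to C5ar1 was 2.45 ± 0.77 in controls and 3.01 ± 1.07 in E3–E12 diet mice (exact permutation p = 0.6), C5ar2 to C5ar1 was 1.04 ± 0.40 and 1.03 ± 0.40 (exact permutation p = 1), and the inhibitor Serping1 to its target C1ra was 10.8 ± 7.66 and 5.01 ± 5.21 (exact permutation p = 0.4). The adjusted values were 0.8 or above.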
